A study of Mus musculus with 18 samples.

Results

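A set of 10 transcripts that build and load the major histocompatibility complex (MHC) class I molecule was followed in mouse pancreas: the light chain B2m, the heavy chains H2-K1, H2-D1, H2-T23 and H2-Q4, the peptide transporter subunits Tap1 and Tap2, tapasin (Tapbp), and the immunoproteasome subunits Psmb8 and Psmb9. They were chosen by gene symbol and are 10 of the 25651 genes in the count table. Pancreas was taken at 20 weeks of age from 5 KPC ASC KO mice, 7 KPC mice and 6 wild-type (WT) mice, all bred on a mix of 129Sv and C57BL/6. KPC is the usual name of a pancreatic cancer model in which Cre switches on mutant alleles in the pancreas. The labels spell out neither those alleles and their Cre driver nor the allele that removes ASC, the inflammasome adaptor encoded by Pycard. The KPC ASC KO mice carry the KPC genotype as well.

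Class I molecules display peptides from a cell's own proteins to CD8 T cells. The peptides are cut by the proteasome, pumped into the endoplasmic reticulum by the Tap1-Tap2 transporter and fitted to the heavy chain with the help of tapasin, and the heavy chain is stable only when bound to B2m. Interferon signalling raises these genes together and exchanges catalytic proteasome subunits for their immunoproteasome counterparts. Leukocytes express class I strongly, whereas the exocrine pancreas is mostly acinar cells that make digestive enzymes.

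Of the 10 genes, 9 lie on chromosome 17, in the MHC, within 2116957 bases (33915899 to 36032855, GRCm38), and B2m lies on chromosome 2 (122147686 to 122153083). The RefSeq starts of Tap1 and Psmb9 point away from each other with 225 bases between them. The stretches printed here come from RefSeq promoter windows (250 bases before to 50 after the start, build GRCm38.p6), which 9 of the 10 genes have. They were chosen after looking at the windows, because they carry 2 sets of letters side by side: GGGNNTTNC, a core of the NF-kB consensus, and TTTCNNTT, a core of the interferon response element. Both were searched on both strands, and capitals mark the matches, which in B2m are on the opposite strand and which in H2-Q4 hold 2 overlapping matches of GGGNNTTNC. The printed H2-K1 stretch is chr17:34000349-34000468 on the minus strand, and those on the plus strand are H2-D1, chr17:35262923-35262951, H2-Q4, chr17:35379433-35379582, and B2m, chr2:122147520-122147685.
H2-K1: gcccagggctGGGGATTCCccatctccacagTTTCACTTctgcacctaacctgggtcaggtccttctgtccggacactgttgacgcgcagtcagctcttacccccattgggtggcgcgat
H2-D1: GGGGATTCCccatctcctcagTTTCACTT
H2-Q4: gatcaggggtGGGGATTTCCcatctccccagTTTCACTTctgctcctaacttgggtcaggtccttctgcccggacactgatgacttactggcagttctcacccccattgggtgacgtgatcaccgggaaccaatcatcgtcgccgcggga
B2m: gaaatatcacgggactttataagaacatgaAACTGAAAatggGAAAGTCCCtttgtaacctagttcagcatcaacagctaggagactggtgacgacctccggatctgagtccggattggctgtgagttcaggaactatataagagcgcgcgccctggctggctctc
Both sets of letters occur together in these 4 genes and in 3.6% of all 32851 promoter windows. TTTCNNTT alone was found in 5 of the 9 windows, the fifth being that of H2-T23, and in 23.9% of all windows, and GGGNNTTNC in 4 of the 9 and in 15.2% of all windows. Over about 150 bases of the windows, the H2-K1 promoter was 88.1% identical to that of H2-D1 and 84.0% identical to that of H2-Q4. A match is a description of the letters, not evidence of a bound factor.

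The table counts unique molecular identifiers (UMIs), tags that let each captured RNA molecule be counted once. Library totals were 374432 to 647947 UMIs in KPC ASC KO, 452472 to 1626977 in KPC and 294077 to 416879 in WT. Pycard was at 5.56 to 34.2 CPM (counts scaled to a common library sum) in KPC ASC KO, against 35.1 to 99.5 CPM in KPC and 45.4 to 65.5 CPM in WT. All 30 acinar enzyme genes were detected and tested, and their summed level was 266061 to 946840 CPM in KPC ASC KO, 20869 to 398901 CPM in KPC and 563224 to 1055110 CPM in WT. These CPM use TMM scaling (trimmed mean of M values), which sets libraries to a common level over most genes and not over the total, so a summed CPM can exceed the nominal total. As a plain share of all UMIs, the 10 class I genes took 0.0452% to 0.140% in KPC ASC KO, 0.0917% to 0.493% in KPC and 0.0475% to 0.0823% in WT. Scaling by totals moved the median log2 change of all genes by 1.34 in KPC against WT and by -1.09 in KPC ASC KO against KPC. Relative to that median, the class I median changed little with the scaling: 1.21 by totals and 1.17 by TMM for KPC against WT, and -1.0 by totals and -1.02 by TMM for KPC ASC KO against KPC. A log2 fold change below is relative to most other genes in this sense.

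**Figure D1:**
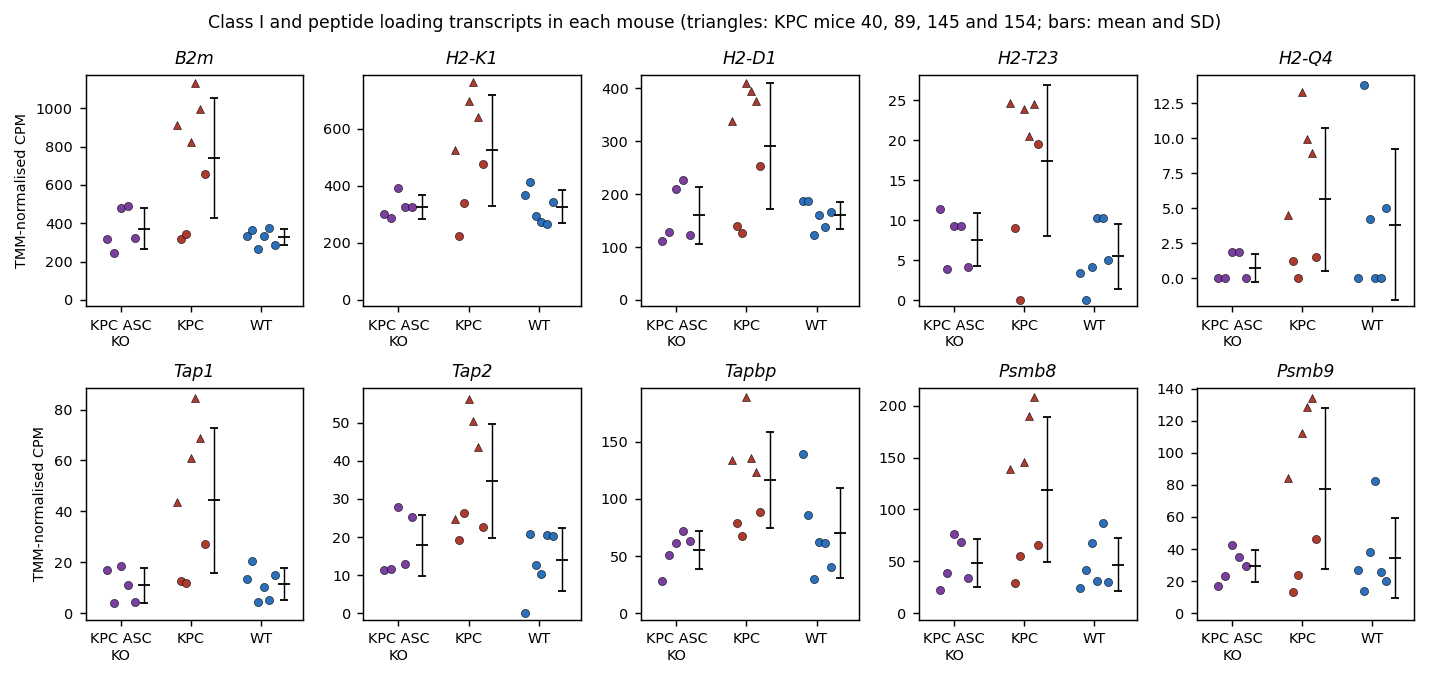
TMM-normalised CPM (y axis) of each of the 10 genes in each mouse, by group (KPC ASC KO, KPC, WT), with the mean and SD beside the points and triangles for KPC mice 40, 89, 145 and 154. For B2m those 4 mice lie at 823 to 1131 CPM and the other 3 KPC mice at 316 to 656 CPM.

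KPC pancreas held more class I transcript than WT pancreas: B2m, H2-K1, H2-D1, H2-T23, Tap1, Tap2 and Psmb8 were called higher in KPC, 7 of the 9 genes with enough counts to test, and none lower. The test was edgeR's quasi-likelihood test with Benjamini-Hochberg adjustment over 6920 genes, a gene being called at an adjusted p under 0.05, and 14.8% of all tested genes were called higher in the same comparison. H2-T23, Tap1, Tap2 and Psmb9 passed the filter on low counts only through the KPC libraries, where they are high, so their part in these counts and medians is no support. Of the 5 genes that had enough counts without KPC, 4 were called higher. The median log2 fold change was 1.23 over the 9 genes and 0.06 over all tested genes. KPC and WT mice overlapped for all 10 genes, and among all tested genes 3.77% had every KPC mouse above every WT mouse, so that 0 of 10 says nothing particular about class I.

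B2m, the shared light chain, was at 911, 316, 346, 823, 1131, 996 and 656 CPM in KPC mice 40, 43, 48, 89, 145, 154 and 210, against 267 to 374 CPM in WT (median 334). In 5 KPC mice B2m lay above every WT mouse, and KPC mice 43 and 48 lay within the WT range. The log2 fold change was 1.18 (SE 0.26, edgeR adjusted p = 0.00238). H2-K1, a classical heavy chain that presents to CD8 T cells, was at 222 to 762 CPM in KPC (median 526) and at 267 to 414 CPM in WT (median 318), with 5 KPC mice above every WT mouse and 1 below every WT mouse. It rose by 0.68 on the log2 scale (SE 0.21, edgeR adjusted p = 0.0197). H2-D1, the other classical chain, was at 127 to 410 CPM in KPC (median 339) and at 123 to 187 CPM in WT (median 163). It rose by 0.86 (SE 0.26, edgeR adjusted p = 0.0176), again with 5 KPC mice above the whole WT group.

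The non-classical chains were sparse. H2-T23, which encodes Qa-1, a ligand of inhibitory receptors on natural killer (NK) cells, had 183 UMIs over the 7 KPC mice and 7 over the 6 WT mice. Its level was 0 to 24.7 CPM in KPC (median 20.5) and 0 to 10.3 CPM in WT (median 4.65), a log2 rise of 1.82 (SE 0.61, edgeR adjusted p = 0.0279) carried by 5 KPC mice above every WT mouse. That call was lost without WT mouse 69, 1197 or 1202 (adjusted p up to 0.0769), and without KPC mouse 40, 89, 145, 154 or 210 the gene failed the filter and was not tested, so it held in 5 of the 13 fits with 1 mouse left out. H2-Q4, a chain of the Qa-2 region, failed the filter on low counts, with 65 UMIs in all KPC mice and 6 in all WT mice. It was at 0 to 13.3 CPM in KPC and at 0 to 13.8 CPM in WT, and the highest WT value was a single mouse with 4 UMIs.

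Among the transport and loading genes, Tap1 rose by 1.92 on the log2 scale (SE 0.53, edgeR adjusted p = 0.0101). It was at 12 to 84.5 CPM in KPC (median 43.8) and at 4.24 to 20.7 CPM in WT (median 12), with 5 KPC mice above every WT mouse. The WT level of Tap1 rests on 1 to 6 UMIs a mouse, 17 in all. Tap2, its partner, was at 19.3 to 56.3 CPM in KPC (median 26.4) and at 0 to 20.7 CPM in WT (median 16.5), and 6 of the 7 KPC mice lay above the WT group. The log2 fold change was 1.37 (SE 0.44, edgeR adjusted p = 0.0206), and it missed the threshold without WT mouse 69, the 1 WT library with no Tap2 UMI (1.05, adjusted p = 0.0551). Tapasin, which holds the empty heavy chain at the transporter, did not pass, with 67.2 to 189 CPM in KPC and 29.7 to 140 CPM in WT (0.72, SE 0.30, edgeR adjusted p = 0.0729). The WT mouse at 140 CPM was again mouse 69, and without it Tapbp passed (1.05, adjusted p = 0.014). It also passed without KPC mouse 43 or 48.

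The immunoproteasome subunit Psmb8, which replaces the constitutive Psmb5, was at 29.2 to 208 CPM in KPC (median 139) and at 23.8 to 87.2 CPM in WT (median 36.2). It rose by 1.38 (SE 0.46, edgeR adjusted p = 0.0323), with 4 KPC mice above every WT mouse, and lost that call without any 1 of WT mice 69, 1197, 1213 and 1238 or KPC mice 145 and 154 (adjusted p up to 0.0786). Psmb9, which replaces Psmb6, was at 13.4 to 134 CPM in KPC and at 13.8 to 82.6 CPM in WT, a log2 difference of 1.23 that did not pass (SE 0.53, edgeR adjusted p = 0.0857). Its range within KPC was 10.0-fold, the widest of the 9 tested genes whose lowest KPC value was above 0. Without WT mouse 1213, which held the highest WT value, or without KPC mouse 43 or 48, Psmb9 passed.

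**Figure D2:**
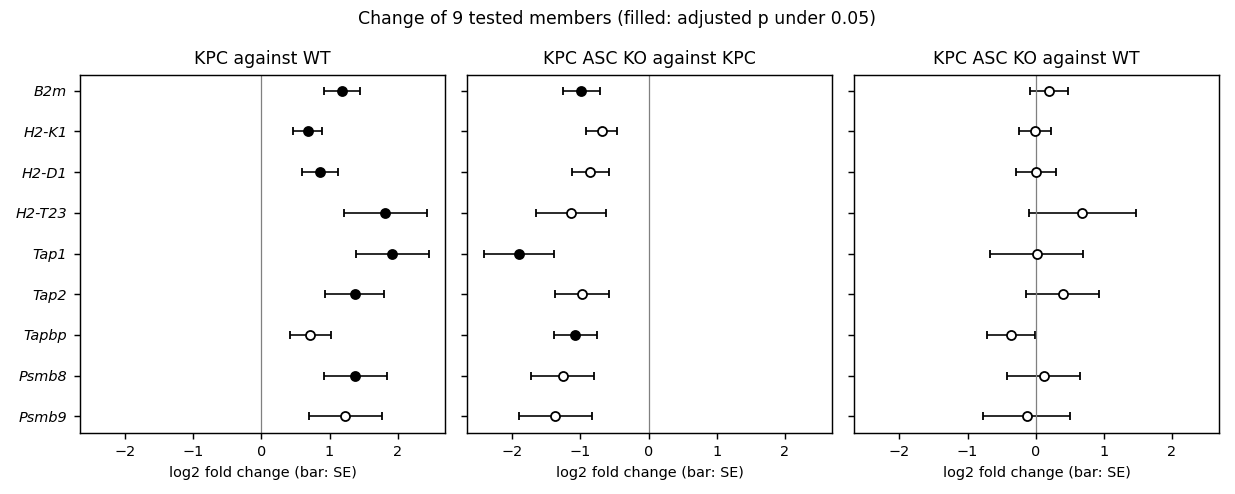
Log2 fold change with its SE (x axis) for the 9 tested genes (rows) in 3 panels, which set KPC against WT and then KPC ASC KO against each of KPC and WT, with filled points for an adjusted p under 0.05. The filled points number 7 in the first comparison, 3 in the second and 0 in the third.

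The rise in KPC was uneven between mice, and the same mice were high for nearly every gene. KPC mice 40, 89, 145 and 154 were above KPC mice 43, 48 and 210 for 9 of the 10 genes, the exception being Tap2, where mouse 48 exceeded mouse 40 (26.4 and 24.7 CPM). Mice 89, 145 and 154 were among the top 3 for 9 genes each. The lowest value belonged to mouse 43 for 5 genes and to mouse 48 for the other 5. These 4 mice had been singled out in earlier results of these data for their B cell transcripts, and they are also the ones with more leukocyte transcript. The summed level of 10 pan-leukocyte genes was 1868 to 2420 CPM in mice 40, 89, 145 and 154 and at most 891 CPM in the other 3 KPC mice, against 522 to 661 CPM in WT. Of these 10 genes 9 were called higher in KPC than in WT and 0 lower, beside 14.8% of all tested genes called higher. The 11 B cell genes summed to 703 CPM or more in the 4 mice and to at most 140 CPM in the other 3, against 151 to 211 CPM in WT. T cell genes also divided the KPC mice, at 592 CPM or more in the 4 and at most 114 CPM in the other 3. The 14 macrophage genes did not set the mice far apart. They summed to 2868 CPM or more in the 4, up to 2841 CPM in the other 3 and 919 to 1251 CPM in WT. Of the 11 tested, 9 were called higher in KPC than in WT, beside the same 14.8%. Which pan-leukocyte and macrophage genes passed the filter on low counts only through KPC was not examined. In bulk tissue, a change in the number of cells of a type and a change in RNA per cell cannot be told apart.

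**Figure D3:**
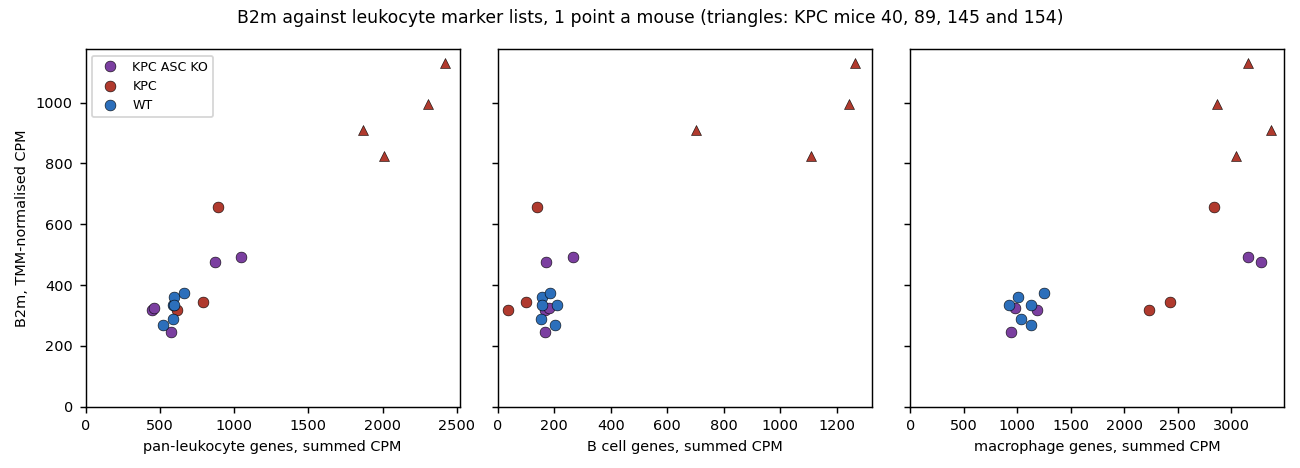
B2m (y axis, TMM-normalised CPM) against the summed CPM of pan-leukocyte, B cell and macrophage genes (x axes), 1 point a mouse, with triangles for KPC mice 40, 89, 145 and 154. The 4 triangles lie at 1868 to 2420 CPM of pan-leukocyte genes and above 800 CPM of B2m, and macrophage genes are also high in 2 KPC ASC KO mice whose B2m is below 500 CPM.

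Without those 4 mice no class I gene was called in KPC against WT, and 5.56% of all tested genes were called higher. The 4 mice are also the highest for 9 of the 10 class I genes, and 3 KPC mice remain, so smaller values follow from the choice of mice. Over the same 6920 genes, an alternative added after seeing the data, the class I median fell to 0.12, against 0.01 for all tested genes, with B2m at 0.41 (edgeR adjusted p = 0.275), H2-K1 at 0.06 (0.896), Tap1 at 0.47 (0.605) and Psmb9 at -0.38 (0.646). The part of leukocyte content in the class I levels was not tested. With limma-voom in place of edgeR and all mice included, 2 of the 9 genes passed, B2m and H2-K1.

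KPC ASC KO pancreas held less class I transcript than KPC pancreas, with 3 of the 9 tested genes called lower, B2m, Tap1 and Tapbp, and none higher. Among all tested genes 2.69% were called lower in this comparison. Of the 5 genes with enough counts without KPC, 2 were called, B2m and Tapbp. The median log2 fold change was -1.08 over the 9 genes and -0.05 over all tested genes. All 5 KPC ASC KO mice lay below the KPC mean for all 10 genes, as they did for 19.5% of all tested genes. H2-T23, Tap1, Tap2 and Psmb9 passed the filter only through KPC and H2-Q4 was not tested, so they are no support in this count. The other 5 are B2m, H2-K1, H2-D1, Tapbp and Psmb8. KPC mice 40, 89, 145 and 154, high for nearly every gene, raise the KPC mean. The groups overlapped for each class I gene, and among all tested genes 1.05% had every KPC ASC KO mouse below every KPC mouse. This comparison and the one with WT share the same 7 KPC mice, so the 2 sets of values are not independent.

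B2m was at 316, 246, 477, 492 and 325 CPM in KPC ASC KO mice 318, 335, 377, 384 and 388, all below 5 of the 7 KPC mice (316 to 1131 CPM, median 823). Its log2 fold change was -0.99 (SE 0.27, edgeR adjusted p = 0.0271). Tap1 was at 17.1, 3.91, 18.6, 11.1 and 4.22 CPM in those mice, and 3 of them lay below every KPC mouse (12 to 84.5 CPM). It fell by 1.91 (SE 0.51, edgeR adjusted p = 0.0247), the largest change of the 9 genes. These Tap1 levels rest on 1 to 10 UMIs a mouse in KPC ASC KO, 24 in all. Tap1 passed the filter on low counts only through the KPC libraries, so its rank among the 9 is no support. Tapasin was at 28.5, 50.8, 61.2, 72.3 and 63.3 CPM, with 4 of 5 mice below every KPC mouse (67.2 to 189 CPM), and fell by 1.08 (SE 0.31, edgeR adjusted p = 0.0343).

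The classical heavy chains came close to the threshold without passing. H2-K1 was at 299, 285, 392, 325 and 325 CPM in KPC ASC KO and at 222 to 762 CPM in KPC (-0.69, SE 0.23, edgeR adjusted p = 0.0541). H2-D1 was at 111, 129, 210, 226 and 122 CPM in KPC ASC KO and at 127 to 410 CPM in KPC (-0.86, SE 0.27, edgeR adjusted p = 0.0517). The remaining tested genes had larger differences with wider errors. H2-T23 was at 11.4, 3.91, 9.28, 9.27 and 4.22 CPM in KPC ASC KO (-1.14, SE 0.51, edgeR adjusted p = 0.155), from 1 to 5 UMIs a mouse. Tap2 was at 11.4, 11.7, 27.8, 13.0 and 25.3 CPM (-0.97, SE 0.40, edgeR adjusted p = 0.121). Psmb8 was at 22.8, 39.1, 76.1, 68.6 and 33.8 CPM (-1.26, SE 0.46, edgeR adjusted p = 0.0899), and Psmb9 at 17.1, 23.4, 42.7, 35.2 and 29.6 CPM (-1.37, SE 0.53, edgeR adjusted p = 0.11). H2-Q4 had 2 UMIs in all 5 KPC ASC KO mice and was not tested.

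The calls in KPC ASC KO against KPC moved with single mice and settings. H2-K1 and H2-D1 passed once acinar enzyme genes were removed (edgeR adjusted p = 0.0464 and 0.0479), B2m missed without the filter on low counts (adjusted p = 0.0708), Tap1 missed by limma-voom (adjusted p = 0.261), and none of the 9 passed when only those 2 groups were fitted. The B2m call was lost when any 1 of KPC mice 89, 145 and 154 or KPC ASC KO mice 318, 335 and 388 was left out (adjusted p up to 0.103). Tap1 lost its call without KPC ASC KO mouse 318, 335 or 388 (up to 0.0873), and Tapbp without 8 of the 12 mice taken singly, KPC mice 40, 89, 145 and 154 and KPC ASC KO mice 318, 335, 377 and 388 (up to 0.126). Leaving out KPC mice 40, 89, 145 and 154, the highest for 9 of the 10 genes, left 0 of the 9 called, with B2m at -0.21 (edgeR adjusted p = 0.783), Tap1 at -0.45 (0.771) and Tapbp at -0.47 (0.599), and 1 gene called in the whole table (0.0145%). The pan-leukocyte genes summed to 447 to 1046 CPM in KPC ASC KO, against 613 to 2420 CPM in KPC. Of these genes 4 of 10 were called lower, beside 2.69% of all tested genes. Acinar enzymes were called higher in 26 of 30, beside 466 of all 6920 tested genes. The part of leukocyte and acinar content in the class I difference was not tested. KPC ASC KO mice 377 and 384 had the highest B2m, H2-D1, Psmb8 and Psmb9 of their group, and the highest pan-leukocyte and macrophage sums. They also had the highest sums of 10 fibroblast genes (3126 and 2905 CPM) and the lowest acinar enzyme sums (359568 and 266061 CPM). H2-K1, H2-T23, Tap1, Tap2 and Tapbp did not follow that order. H2-T23 was highest in mouse 318 (11.4 CPM), where Tap1 (17.1 CPM) also exceeded mouse 384 (11.1 CPM). Mouse 388 exceeded mouse 384 for H2-K1 and Tap2, and mouse 377 for Tapbp (63.3 and 61.2 CPM). The T cell sum was lowest in mouse 377 (76.1 CPM) and highest in mouse 384 (165 CPM).

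Between KPC ASC KO and WT no class I gene was called, nor was any of the 6920 genes by edgeR (0%), although 691 had an unadjusted p under 0.05 (0 of them class I), and DESeq2 called 8 genes and limma-voom 0. The class I median was 0.01 and that of all genes 0.00 to 2 decimals. B2m differed by 0.19 (SE 0.28), H2-K1 by -0.01 (SE 0.23), H2-D1 by 0.01 (SE 0.29) and Tap1 by 0.01 (SE 0.68), with edgeR adjusted p from 0.772 to 0.999 over the 9 genes. For Tap1 that SE leaves room for a sizeable difference either way, so similarity of the groups is not shown.

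Ratios of counts inside one library do not depend on scaling. Immunoproteasome subunits were set against the constitutive subunits they replace, and H2-K1 against H2-D1, in 12 comparisons by exact two-sided permutation tests, with adjustment over the 12. Psmb8 stood at 88.1 UMIs per 100 of Psmb5 in the summed KPC ASC KO libraries, 222 in KPC and 70.3 in WT. The mean log2 ratio was 0.82 ± 1.04 in KPC (SD, n = 7) and -0.56 ± 1.06 in WT (SD, n = 6), a difference of 1.37 (exact permutation p = 0.0425, adjusted p = 0.151). In KPC ASC KO it was -0.47 ± 0.81 (SD, n = 5), 1.28 lower than in KPC (exact permutation p = 0.0518, adjusted p = 0.151). Psmb9 to Psmb6 differed by 1.42 between KPC and WT (exact permutation p = 0.0629, adjusted p = 0.151) and by -1.16 between KPC ASC KO and KPC (exact permutation p = 0.0985, adjusted p = 0.197). Neither ratio passed after adjustment. The 4 KPC mice with high leukocyte transcript held the 4 highest values of both ratios within KPC. H2-K1 to H2-D1 did not pass in any comparison (adjusted p from 0.428 to 0.793), with group means of 1.07 ± 0.38 in KPC ASC KO (SD, n = 5), 0.87 ± 0.26 in KPC (SD, n = 7) and 1.01 ± 0.17 in WT (SD, n = 6).

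**Figure D4:**
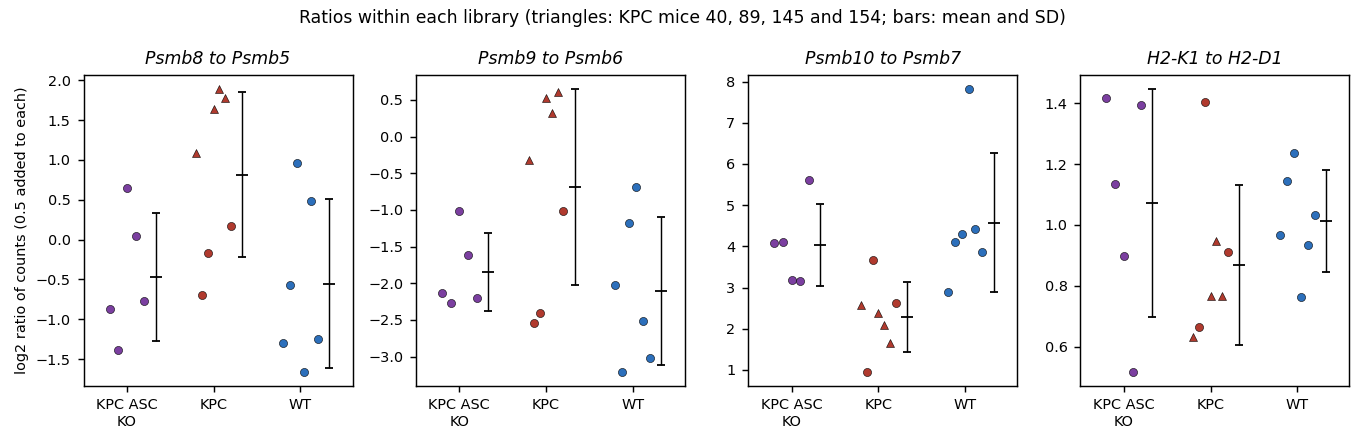
Log2 ratio of counts (y axis, 0.5 added to each count) in each mouse for Psmb8 to Psmb5, Psmb9 to Psmb6, Psmb10 to Psmb7 and H2-K1 to H2-D1, by group (KPC ASC KO, KPC, WT), with the mean and SD and triangles for KPC mice 40, 89, 145 and 154. In the third panel the means are 4.03 in KPC ASC KO, 2.28 in KPC and 4.57 in WT, the opposite order to the first 2 panels.

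Psmb10, the remaining immunoproteasome subunit, went the other way. From 94 to 215 UMIs a library, it was at 39.5 to 322 CPM in KPC (median 126) and at 324 to 583 CPM in WT (median 466), and fell by 1.64 (SE 0.35, edgeR adjusted p = 0.00253), with the groups apart by the narrow gap between 322 and 324 CPM. Among all tested genes 5.09% had every KPC mouse below every WT mouse. As a plain share of all UMIs the groups overlapped for Psmb10, with 0.0296% in KPC mouse 48 and 0.0230% in WT mouse 1197. In KPC ASC KO Psmb10 was at 453, 504, 193, 224 and 511 CPM and rose by 1.34 relative to KPC (SE 0.36, edgeR adjusted p = 0.0293). Its log2 ratio to Psmb7 was 2.28 ± 0.85 in KPC (SD, n = 7) and 4.57 ± 1.69 in WT (SD, n = 6; exact permutation p = 0.00291, adjusted p = 0.035). In KPC ASC KO the ratio was 4.03 ± 0.99 (SD, n = 5), 1.75 above KPC (exact permutation p = 0.00758, adjusted p = 0.0455). With 1 mouse left out, the first of these calls was lost in 6 of 13 tests, without any 1 of KPC mice 40, 43, 89, 145, 154 and 210 (adjusted p = 0.052 in each). The second was lost in 9 of 12, without any 1 of those mice or of KPC ASC KO mice 318, 335 and 388 (adjusted p up to 0.145). Psmb7 had 0 to 17 UMIs in WT mice, which limits this ratio. On chromosome 8 (GRCm38), Psmb10 ends 1872 bases before the start of Ctrl, a chymotrypsin-like acinar enzyme gene on the same minus strand. Ctrl was at 9046 to 40747 CPM in KPC ASC KO, 654 to 13530 CPM in KPC and 19935 to 40064 CPM in WT, with log2 fold changes of -2.79 in KPC against WT and 2.69 in KPC ASC KO against KPC. Whether reads of one gene were counted for the other was not tested.

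Other genes of the pathway were taken from lists by function, not picked for how they moved here. Beside the counts that follow, 14.8% of all tested genes were called higher in KPC than in WT, and 1047 of 6920 lower. In KPC ASC KO against KPC, 2.69% were called lower and 466 of 6920 higher. Listed genes under the filter on low counts were not tested, and a gene high only in KPC can pass that filter through the KPC libraries. Which listed genes did so was not examined for most lists, so counts of calls higher in KPC, or lower in KPC ASC KO, are no support. Of the other class I heavy chains, 2 of 5 tested were called higher in KPC than in WT: H2-M3, which presents formylated peptides (2.27, SE 0.64, edgeR adjusted p = 0.0105), and H2-Q7 of the Qa-2 region (1.74, SE 0.62, edgeR adjusted p = 0.0431). H2-Q7 was at 10.9 to 208 CPM in KPC and at 10.3 to 55.2 CPM in WT, and 0 of the 5 chains were called in KPC ASC KO against KPC. H2-M3 and H2-Q7 passed the filter only through the KPC libraries, so their calls in that count are no support. Among 13 tested genes of peptide supply and loading, 3 were called higher in KPC and 4 lower. The higher ones were the proteasome activator subunits Psme2 (1.15, adjusted p = 0.0047) and Psme1 (1.00, adjusted p = 0.026) and the loading-complex oxidoreductase Pdia3 (0.77, adjusted p = 0.00936). The lower ones were the translocon subunits Sec61a1 (-0.94, adjusted p = 0.000761) and Sec61b (-1.09, adjusted p = 0.0011), the peptidase Thop1 (-1.16, adjusted p = 0.00309) and Psmb10 (edgeR throughout). In KPC ASC KO against KPC, Psme2 was lower (-1.03, edgeR adjusted p = 0.0242) and Sec61a1 and Psmb10 were higher. The 14 core subunits of the constitutive proteasome gave 2 higher and 1 lower in KPC. Psmb5 (-0.24, adjusted p = 0.459) and Psmb7 (0.06, adjusted p = 0.923) did not pass, and Psmb6 was lower (-0.50, edgeR adjusted p = 0.0418).

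Of 11 tested regulators of class I transcription, 5 were called higher in KPC than in WT and 0 lower. They included Nfyc, a subunit of the factor that binds CCAAT (1.59, adjusted p = 0.00259), the NF-kB subunit Rela (1.02, adjusted p = 0.00417) and Irf9, a DNA-binding factor of the interferon response (1.08, adjusted p = 0.0146, edgeR throughout). Nlrc5, the activator dedicated to class I genes, was too low to test, at 0 to 8.55 CPM in KPC ASC KO, 0 to 17.5 CPM in KPC and 0 to 15.1 CPM in WT. Among interferon receptors and their signalling partners, 4 of 8 were higher in KPC, led by Ifngr1 (1.63, edgeR adjusted p = 0.0016), Ifnar2 and Ifngr2, and 2 of 8, Ifnar1 and Ifnar2, were lower in KPC ASC KO than in KPC. Of 15 listed interferon-inducible GTPases 5 were tested. Of these 5, 4 were called higher in KPC, Irgm1 (1.95), Ifi47 (2.0), Gbp7 (1.42) and Iigp1 (1.59, edgeR adjusted p up to 0.0253). None was called in KPC ASC KO against KPC. The 15 genes summed to only 66.6 to 110 CPM in WT and to 67.2 to 405 CPM in KPC. Which of the 5 passed the filter only through KPC was not examined, so their count is no support. Interferon gamma itself (Ifng) had 1 UMI in KPC ASC KO mouse 377, 1 in KPC mouse 145 and 0 in every other library. Without KPC mice 40, 89, 145 and 154, the calls in KPC against WT were 0 of 5 other heavy chains, 0 of 11 regulators, 1 of 8 interferon receptor and signalling genes and 0 of 5 GTPases.

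Some of the genes most like the class I genes across mice were leukocyte genes. By Pearson correlation of log2 CPM with the mean profile of the 9 tested genes over all 18 mice, the 10 most alike of 6202 other genes included Rac2 (0.97), Limd2 (0.95), Irf8 (0.94), Shisa5 (0.93), Cd52 (0.93), Coro1a (0.93), Laptm5 (0.92), Cnn2 (0.92) and Tcof1 (0.92). The median over all genes was 0.11. Rac2, Cd52, Coro1a and Laptm5 are on the pan-leukocyte list, and Irf8 on the dendritic cell list. Limd2, Shisa5, Cnn2 and Tcof1 are on none of the cell type lists. The profile includes H2-T23, Tap1, Tap2 and Psmb9, which passed the filter only through KPC, so likeness to genes high in KPC is partly built in. After the group means were taken out, the 10 still had r from 0.83 to 0.95. Each tested class I gene followed the mean of the others with r from 0.56 for Tap2 to 0.97 for B2m. With group means taken out, r was 0.30 for Tap2, 0.48 for Tapbp and 0.55 for H2-T23, and up to 0.95 for B2m. These correlations describe 18 mice that share groups and sequencing, and carry no test.

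The heavy chains resemble each other, so reads could be shared between them. No 101-base stretch, the read length, in the last 500 bases of the B2m, H2-K1, H2-D1, Tap1, Tap2, Tapbp, Psmb8 or Psmb9 transcripts occurred in a transcript of another gene. In the last 500 bases, 9.25% of the stretches of H2-T23 and 6.25% of those of H2-Q4 did, so these 2 genes are the less certain. In the GENCODE annotation Tap1 and Psmb9 overlap on opposite strands, and Tapbp overlaps Zbtb22, with 98 UMIs in all mice, on the same strand. The H2 haplotype of each mouse is not given in the sources used here, so an effect of 129Sv alleles on counting was not tested.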

How the data were processed

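Pancreas RNA of 18 mice was sequenced as tags primed at the poly(A) tail, each read carrying an 8-base sample index and a 10-base UMI, per the labels' protocols. The authors deposited 1 table of UMI counts per gene, unnormalised whole numbers. The submitters' processing notes name R 4.1.2, edgeR 3.36.0, limma 3.50.0 and the build GRCm38 (mm10). How reads were aligned and UMIs collapsed is not given in the sources used here. Genes under edgeR's low-count filter (minimum count 10) were left out, which kept 6920. Counts were scaled by TMM and fitted with edgeR 4.0.16 (robust quasi-likelihood, R 4.3.3) over all 3 groups, with Benjamini-Hochberg adjustment over the 6920 genes and an adjusted p under 0.05 as the threshold. CPM in the text use the same scaling. The quasi-likelihood test gives no SE. Each SE of a log2 fold change was back-calculated as its absolute value over the square root of the F statistic, so it is approximate. Levels are not compared between genes, except as ratios of counts from 3' tags inside one library. Those ratios added 0.5 to each count and were tested by exact permutation over all arrangements (Python 3.11.15, numpy 2.4.6). Alternatives were scaling by total counts, RLE, removal of acinar enzymes, no filter, DESeq2 1.42.0, limma-voom (limma 3.58.1), only the compared groups, and leaving out mice. The fit and the permutation test were tested on simulated data. The lowest chi-square per degree of freedom between libraries of 1 group was 2.35 (scipy 1.17.1), so no pair was taken as 1 library.

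All 10 class I genes are named. Up to 4 genes of each companion list, those with the smallest p in KPC against WT, are named with Psmb5, Psmb6, Psmb7, Psmb10 and Nlrc5, and the 10 genes most alike in profile, without predicted genes and antigen receptor segments. A gene these rules would name is not reported here. The class I genes, the lists and the rules were chosen with earlier results of these data known. Pycard was lower in KPC ASC KO than in KPC (log2 fold change -1.94, edgeR adjusted p = 0.0043), but a 3' tag may lie outside the deleted part. The p-values measure the spread between these mice.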

Additional observations from a re-analysis of the deposited data

Results flagged for a closer look

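Of 42 groups of values examined, 4 held 1 mouse whose gap to its nearest neighbour was large for the group's range, and chance flags about 1 in 20 groups. The log2 ratio of H2-K1 to H2-D1 was 1.40 in KPC mouse 48, and the next KPC mouse was at 0.947. H2-Q4 was at 13.8 CPM in WT mouse 1197, from 4 UMIs, and the next WT mouse was at 5.05 CPM. Psmb9 was at 82.6 CPM in WT mouse 1213, above all but the 4 highest KPC mice, and the next WT mouse was at 38.2 CPM. The log2 ratio of Psmb10 to Psmb7 was 7.83 in WT mouse 1213, which had 0 Psmb7 UMIs, and the next WT mouse was at 4.42.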

How the results depend on the processing

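In KPC against WT, 2070 genes and 7 of the 9 tested class I genes were called, and in KPC ASC KO against KPC 652 and 3. Scaling by total counts gave 5684 and 5193 genes called and 9 class I genes called in the second comparison. With it, 96.9% of the called genes were higher in KPC than in WT and 2.73% higher in KPC ASC KO than in KPC, against 49.4% and 71.5% with TMM and 31.2% and 87.3% with limma-voom. In KPC ASC KO against KPC, removing acinar enzymes and DESeq2 each gave 5 class I genes, and fitting only those 2 groups gave 192 genes and 0 class I genes. limma-voom gave 2 class I genes in KPC against WT. Without KPC mice 40, 89, 145 and 154, the genes called numbered 752 in KPC against WT (728 over the same tested genes), and 1 and 4 when KPC ASC KO was set against KPC and against WT, with 0 class I genes in each. KPC ASC KO against WT gave 1 gene by total counts, 12 without the filter, and 8 by DESeq2 and by only those 2 groups.

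Leaving out 1 mouse at a time gave 157 to 1068 genes and 0 to 7 class I genes in KPC ASC KO against KPC, and 0 to 1 genes in KPC ASC KO against WT. The Psmb10 to Psmb7 difference ranged over -2.62 to -1.64 in KPC against WT and 1.35 to 1.98 in KPC ASC KO against KPC (exact permutation, adjusted p up to 0.052 and 0.145), and over -0.94 to 0.11 in KPC ASC KO against WT. It was -2.15 and 1.61 without the 4 KPC mice and did not pass (exact permutation, adjusted p = 0.643 in each). With 3 KPC mice the test has few arrangements, so a missed call there says little.

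Signs turned mostly in KPC ASC KO against WT, where values lay near 0. H2-K1 was 0.26 by total counts, 0.043 without the filter, 0.00056 by limma-voom, 0.065 with only 2 groups and 0.012 without the 4 mice. By limma-voom H2-D1 was -0.0064, Tap1 -0.052 and Psmb9 0.084, DESeq2 put Tap1 at -0.018, and total counts put Psmb9 at 0.17. With 1 mouse left out, H2-K1 was -0.092 to 0.069, H2-D1 -0.16 to 0.11, Tap1 -0.28 to 0.29, Psmb8 -0.12 to 0.36, Psmb9 -0.33 to 0.29, H2-K1 to H2-D1 -0.027 to 0.20 and Psmb8 to Psmb5 -0.19 to 0.39. Without the 4 KPC mice, Psmb9 was -0.34 in KPC against WT (-0.38 over the same genes), and in KPC ASC KO against KPC Psmb8 was 0.072 (0.091), Psmb9 0.23 (0.26) and Psmb9 to Psmb6 0.14. The causes were not tested. No paired analysis was possible because the groups share no mouse numbers. Depth limits H2-T23, H2-Q4, Tap1, Tap2 and Nlrc5, with a few UMIs in most WT and KPC ASC KO libraries. Psmb8 and Psmb9 were also low in WT, with 6 to 17 and 4 to 16 UMIs a mouse.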
